A study of Mus musculus with 4 samples.

Results

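The nuclear genes of respiratory complexes III and IV and of the ATP synthase were described in mouse heart and tibialis anterior (TA), a fast muscle of the lower leg. The 44 genes were those whose symbol starts with Uqcr or Atp5, starts with Cox and a digit from 4 to 8, or is Cyc1, Cycs or Atpif1. They were 44 of 11237 gene symbols in the heart and TA tables together. All 44 were listed for heart and 43 for TA, where Cox7c had no entry, which is not a value of 0. They comprised 9 genes of complex III, 14 of complex IV, 15 of the ATP synthase, cytochrome c itself (Cycs) and the ATP synthase inhibitor Atpif1. The other 4 matched by symbol only. Cox4nb is described in the tables as a subunit of a protein complex of the endoplasmic reticulum, Cox7a2l encodes a protein related to Cox7a, and Atp5s and Atp5sl are not structural subunits of the enzyme.

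The groups were heart and TA of male C57BL/6J mice aged 10 weeks, with no treatment or altered allele. From each tissue came 1 library of ribosome-protected fragments (RPF), the stretches of mRNA that a ribosome shields from nuclease, and 1 library of RNA depleted of ribosomal RNA. The sources used here do not say whether tissue of several animals was combined. With 1 library per group there is no replicate check and no test of any difference between the tissues.

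Complex III passes electrons from ubiquinol to cytochrome c, and complex IV passes them on to oxygen; both pump protons across the inner mitochondrial membrane. The ATP synthase lets protons flow back through a ring of c subunits and uses that flow to make ATP in its catalytic head. A few subunits of complex IV exist in a muscle form and a form found in most tissues, each from its own gene. The core subunits that mitochondrial DNA encodes are not among these genes.

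The tables give reads per 1000000 mapped reads (RPM) over the coding sequence of 1 transcript model per gene, and separately over its untranslated regions (UTRs). Levels of different genes are compared here as coding RPM per kb. The values fell on even steps, which put the depth at 28120000 coding reads for RPF and 9290000 for RNA of heart, and at 28540000 for RPF and 16050000 for RNA of TA. The steps of the RPF values are close to the rounding of the tables, so the read numbers of RPF are less sure than those of RNA. Intervals given below are 95% intervals from these reads; they cover counting error only, since PCR copies are not separate molecules and animals were not repeated. The tissue labels fitted their markers. The 5 cardiac myocyte genes summed to 79124 RPM of RNA in heart, and the 3 of them listed in TA to 12.9 RPM. The 5 fast fibre genes summed to 166231 RPM in TA, and the 3 of them listed in heart to 118 RPM. In bulk tissue, fewer cells of a type and less RNA per cell cannot be told apart.

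The 44 genes took 5.14% of all coding reads in heart RPF and 3.86% in heart RNA. In TA they took 2.50% of RPF and 1.79% of RNA, a smaller part of both readouts than in heart. The TA sums lack Cox7c; over the 43 genes listed in both tissues the heart shares were 5.08% of RPF and 3.83% of RNA. The ATP synthase held the largest part of this in each library, with 3.07% of RPF and 2.38% of RNA in heart, and 1.58% of RPF and 1.14% of RNA in TA. The share of complex III was 0.990% of RPF and 0.632% of RNA in heart, against 0.476% of RPF and 0.288% of RNA in TA. That of complex IV was 0.993% of RPF and 0.742% of RNA in heart, against 0.407% of RPF and 0.317% of RNA in TA; without Cox7c the heart shares were 0.935% and 0.707%. In each tissue the share of RPF exceeded the share of RNA for all 3 enzymes. Cycs, the mobile carrier between complexes III and IV, went the other way, with 0.0461% of RPF and 0.0824% of RNA in heart, and 0.0223% of RPF and 0.0410% of RNA in TA.

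**Figure D1:**
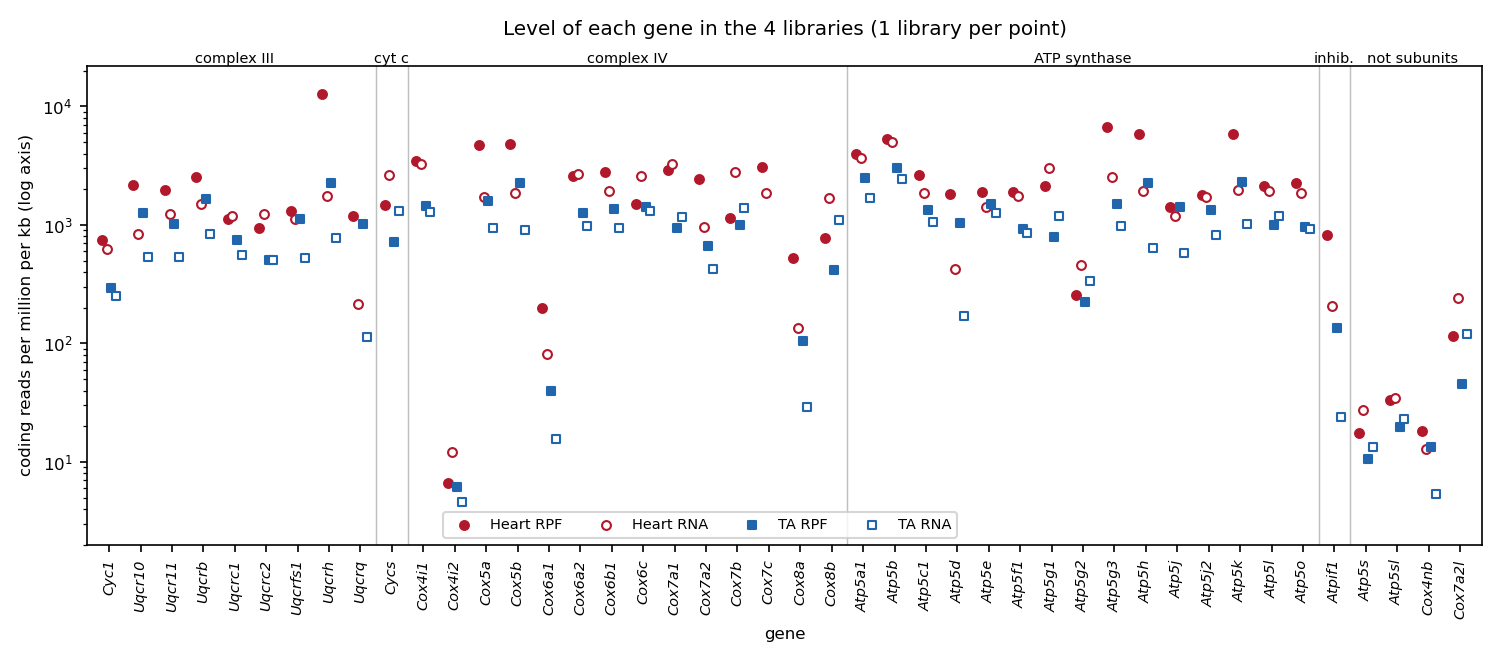
Coding RPM per kb of each gene (log axis) in heart RPF (filled circles), heart RNA (open circles), TA RPF (filled squares) and TA RNA (open squares), 1 library each, ordered by complex. Most subunits lie in a common band in RNA of heart, while Cox4i2, Cox6a1, Cox8a, Uqcrq and Atp5d lie below it; Uqcrh reaches 12619 in heart RPF.

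Among single genes of the ATP synthase, those of the catalytic head were the most abundant in RNA. The 3 genes of subunit c, added up, stood higher, at 6017 RPM per kb of RNA in heart and 2506 in TA. Atp5b, its catalytic beta subunit, stood at 5347 RPM per kb of RPF and 4965 of RNA in heart, and at 3019 of RPF and 2441 of RNA in TA. Atp5a1, the alpha subunit, stood at 3942 of RPF and 3685 of RNA in heart, and at 2494 and 1675 in TA. Alpha and beta are present in several copies per enzyme, and they ranked first and second among the 44 genes in both RNA libraries. Atp5d, the delta subunit of the central stalk, had 1808 RPM per kb of RPF in heart and 1030 in TA, a little below the other stalk subunits Atp5c1 (2620 and 1343) and Atp5e (1905 and 1506). Its RNA, at 424 RPM per kb in heart and 171 in TA, was the lowest of the enzyme. Uqcrq, a small subunit of complex III, showed the same arrangement, with 1198 RPM per kb of RPF in heart and 1015 in TA but 214 of RNA in heart and 114 in TA. Counting all 44 genes, Uqcrh (12619), Atp5g3 (6717) and Atp5h (5840) were highest in RPM per kb of RPF in heart, and Atp5b, Atp5a1 and Atp5k (2320) in TA. After Atp5b and Atp5a1, the next in RNA were Cox7a1 in heart (3265) and Cox7b in TA (1379). The other 8 genes of complex III had at least 626 RPM per kb of RNA in heart and 253 in TA.

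The spread of levels among subunits was summarised as the standard deviation of log2 RPM per kb, after adding up the forms that occupy the same position. For complex IV it was 0.80 in heart RPF (10 positions) and 0.44 in heart RNA, and 0.59 in TA RPF (9 positions, without Cox7c) and 0.29 in TA RNA. Complex IV RNA was thus the most even of the 3 enzymes, with 2.44-fold between its highest and lowest position in heart and 1.77-fold in TA. For complex III the spread was 1.21 in heart RPF and 0.91 in heart RNA, against 0.89 in both TA libraries. For the ATP synthase it was 0.86 in heart RPF and 0.96 in heart RNA, and 0.61 in TA RPF and 0.99 in TA RNA. Only for this enzyme was RPF more even than RNA, in both tissues, and with the c subunit genes kept apart it was not in heart (1.16 in RPF and 0.95 in RNA). These are single libraries with no error to set beside them.

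The muscle form and the widely expressed form of 3 complex IV subunits are encoded by separate genes, and the muscle form was the higher in each of the 4 libraries for all 3 pairs. The coding sequences of the pairs are shown because reads of the forms can be separated only where the sequences differ. They come from GENCODE M21 transcripts (GRCm38), and the capitals mark the longest run that a gene shares with its partner.
Cox6a2: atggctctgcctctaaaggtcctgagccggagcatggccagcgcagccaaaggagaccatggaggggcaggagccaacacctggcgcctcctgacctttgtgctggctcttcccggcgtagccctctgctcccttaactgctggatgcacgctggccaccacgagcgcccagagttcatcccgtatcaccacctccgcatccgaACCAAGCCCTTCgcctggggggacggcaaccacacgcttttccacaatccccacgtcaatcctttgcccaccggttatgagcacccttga
Cox6a1: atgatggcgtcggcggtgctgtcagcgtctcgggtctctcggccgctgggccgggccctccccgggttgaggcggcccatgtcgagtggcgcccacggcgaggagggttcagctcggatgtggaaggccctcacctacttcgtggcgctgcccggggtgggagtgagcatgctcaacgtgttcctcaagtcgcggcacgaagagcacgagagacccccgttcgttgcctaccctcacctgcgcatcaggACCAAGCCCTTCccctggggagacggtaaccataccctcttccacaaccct
Cox7a1: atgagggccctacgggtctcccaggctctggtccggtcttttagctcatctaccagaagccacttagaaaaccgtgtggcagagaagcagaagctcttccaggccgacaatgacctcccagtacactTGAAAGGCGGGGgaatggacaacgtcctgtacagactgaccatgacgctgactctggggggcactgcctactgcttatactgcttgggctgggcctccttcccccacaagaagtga
Cox7a2: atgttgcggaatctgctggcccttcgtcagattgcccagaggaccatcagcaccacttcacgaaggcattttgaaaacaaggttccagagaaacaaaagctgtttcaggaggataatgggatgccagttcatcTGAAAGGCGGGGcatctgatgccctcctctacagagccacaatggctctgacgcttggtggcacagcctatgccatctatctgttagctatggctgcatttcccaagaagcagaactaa
Cox8b: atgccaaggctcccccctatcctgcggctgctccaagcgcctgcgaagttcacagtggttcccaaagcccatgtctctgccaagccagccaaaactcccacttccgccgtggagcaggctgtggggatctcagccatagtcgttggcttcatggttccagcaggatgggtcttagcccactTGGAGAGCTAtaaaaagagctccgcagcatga
Cox8a: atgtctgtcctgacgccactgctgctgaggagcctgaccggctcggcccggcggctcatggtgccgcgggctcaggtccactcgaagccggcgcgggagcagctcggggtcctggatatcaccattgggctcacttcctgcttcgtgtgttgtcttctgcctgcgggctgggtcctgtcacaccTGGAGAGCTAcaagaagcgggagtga
Each sequence runs from the start to the stop codon except that of Cox6a1, given for bases 1 to 300 of 339. The coding exons lie at chr7:128205729-128206295 (minus strand) for Cox6a2 and chr5:115345843-115348950 (minus) for Cox6a1. Those of Cox7a1 lie at chr7:30184231-30185967 (plus) and of Cox7a2 at chr9:79755547-79759657 (minus). Those of Cox8b lie at chr7:140898988-140900342 (minus) and of Cox8a at chr19:7215389-7217512 (minus). Identity over aligned bases was 66.6% for Cox6a2 and Cox6a1, 67.4% for Cox7a1 and Cox7a2, and 68.6% for Cox8b and Cox8a. The longest shared run was 12, 12 and 10 bases, and no window of 26 bases, the shortest fragment cut from the gel, occurred in both genes of a pair. The deposited coding lengths were 6 bases shorter than these sequences.

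Cox6a2 made up 92.8% (92.5 to 93.2) of the pair's coding reads per kb in heart RPF and 97.1% (96.7 to 97.4) in heart RNA. In TA it made up 97.0% (96.6 to 97.2) of RPF and 98.4% (98.1 to 98.8) of RNA. So Cox6a1, the form of most other tissues, was a small part of the pair in both muscles, and a larger part in heart than in TA.

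Cox7a1 made up 54.3% (53.7 to 54.8) of its pair in heart RPF and 77.3% (76.5 to 78.2) in heart RNA, against 58.9% (58.0 to 59.8) of TA RPF and 73.4% (72.3 to 74.5) of TA RNA. Cox7a2 therefore held over 40% of the footprints of the pair in both tissues. Counted over the whole transcript, UTRs included, the Cox7a1 share was 70.2% of RPF and 83.3% of RNA in heart, and 73.9% of RPF and 81.1% of RNA in TA.

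Cox8b made up 59.6% (58.5 to 60.7) of its pair in heart RPF and 92.6% (91.7 to 93.4) in heart RNA, against 79.9% (78.5 to 81.3) of TA RPF and 97.4% (96.9 to 97.9) of TA RNA. The gap between footprints and RNA was the widest of the 3 pairs in both tissues. Over the whole transcript the Cox8b share was 73.8% of RPF and 89.4% of RNA in heart, and 85.9% of RPF and 95.7% of RNA in TA, a smaller gap in the same direction.

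**Figure D2:**
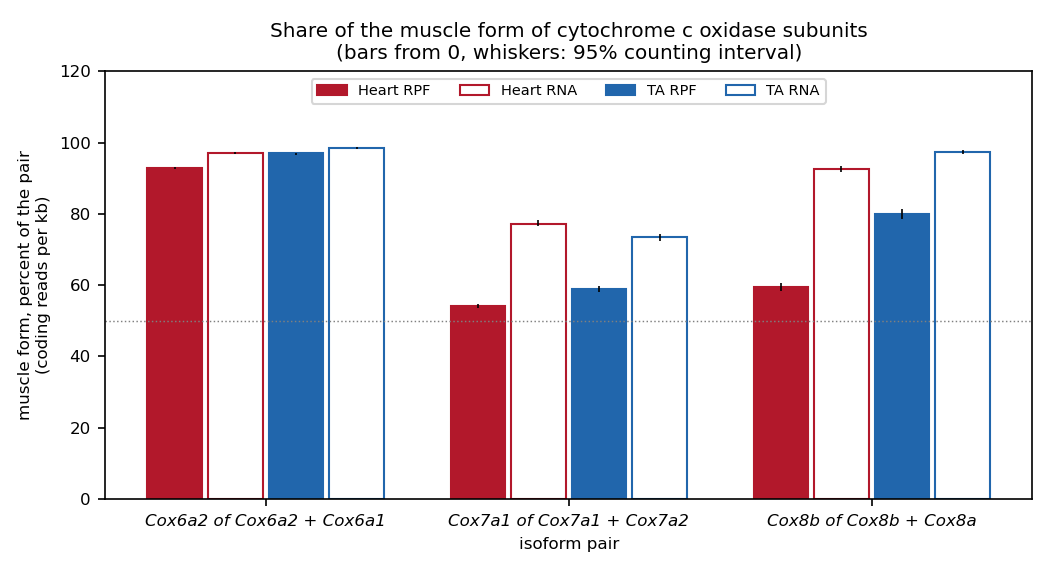
Share of the muscle form (Cox6a2, Cox7a1, Cox8b) in the coding reads per kb of its isoform pair, in percent, for RPF and RNA of heart, then RPF and RNA of TA; whiskers are 95% counting intervals and the dotted line marks 50%. All 12 bars lie above 50%, and each RPF bar is lower than the RNA bar of the same tissue.

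In every pair and both tissues the muscle form had fewer footprints per RNA read than its partner. Translational efficiency is given here as log2 of RPF over RNA of a gene (0.1 RPM added to each), less the median of that value over all genes of the library pair. Cox6a2 had 0.39 and Cox6a1 1.75 in heart, a difference of -1.35 (-1.55 to -1.16); in TA they had 0.63 and 1.59, a difference of -0.97 (-1.31 to -0.62). Cox7a1 had 0.26 and Cox7a2 1.78 in heart (-1.52, -1.60 to -1.45), and -0.04 and 0.90 in TA (-0.94, -1.04 to -0.84). Cox8b had -0.66 and Cox8a 2.41 in heart (-3.07, -3.27 to -2.88), and -1.14 and 2.09 in TA (-3.23, -3.55 to -2.91). In fold terms the efficiency of Cox8a was 8.43 times that of Cox8b in heart and 9.37 times in TA. With UTR reads added, the Cox8b difference was -1.58 in heart and -1.86 in TA. Cox8a had few RNA reads, 256 in heart and 95 in TA.

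The widely expressed forms Cox6a1 and Cox8a had the largest tissue differences in complex IV. Cox6a1 footprints came to 66.6 RPM in heart and 13.3 in TA, and its RNA to 26.9 RPM in heart and 5.22 in TA. Cox8a footprints came to 108 RPM in heart and 21.2 in TA, and its RNA to 27.4 RPM in heart and 5.90 in TA. Both were thus more than 4-fold higher in heart, with log2 ratios (0.1 RPM added) of 2.32 for Cox6a1 RPF, 2.34 for Cox6a1 RNA, 2.34 for Cox8a RPF and 2.20 for Cox8a RNA. Their muscle partners Cox6a2 and Cox8b had RNA ratios of 1.44 and 0.62. Cox7a2 had 1.87 in RPF, above the 1.60 of Cox7a1, and 1.17 in RNA, below the 1.48 of Cox7a1. RNA of endothelial, macrophage and red cell markers was also higher in heart: 4 of 4 endothelial markers summed to 858 RPM in heart and 198 RPM in TA, 3 macrophage markers to 125 and 20.9 RPM. Fibroblast markers were mixed: the 4 summed to 947 and 896 RPM with a median log2 ratio of 0.05, and Col1a1 (111 and 200 RPM) and Col1a2 (208 and 293 RPM) were lower in heart. Red cell markers (2 of 3 listed in each tissue) summed to 12485 RPM in heart and 472 RPM in TA, and smooth muscle markers (3 of 3 listed in heart, 2 in TA) to 250 and 81.7 RPM. Of 3 brown adipocyte markers, Cidea alone was listed, in heart (20.2 RPM of RNA), and Ucp1 was listed in neither tissue; of 5 white adipocyte markers, 0 were listed in heart and 3 in TA (25.0 RPM together). The part of these cells in the levels of Cox6a1, Cox7a2 and Cox8a was not tested.

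Subunit 4 and the c ring also have alternative genes. Cox4i2, an alternative form known for its expression in lung and its response to low oxygen, made up 0.193% of RPF and 0.371% of RNA of its pair with Cox4i1 in heart, and 0.426% of RPF and 0.358% of RNA in TA. Its values rest on 96 reads of RPF and 58 of RNA in heart, and 90 and 38 in TA. The genes Atp5g1, Atp5g2 and Atp5g3 encode c subunits whose mature protein is the same. Atp5g1 and Atp5g3 were close in RNA, with 3000 and 2553 RPM per kb in heart and 1191 and 977 in TA. Their footprints were not close: Atp5g1 had 2112 and Atp5g3 6717 RPM per kb in heart RPF, and 794 and 1486 in TA RPF. Atp5g1 thus held 23.9% of RPF but 54.0% of RNA of that pair in heart, and 34.8% of RPF but 54.9% of RNA in TA. Atp5g2 was the lowest of the 3, with 258 RPM per kb of RPF and 463 of RNA in heart, and 224 and 338 in TA. Every 26-base window of the Atp5g1 and Atp5g2 coding sequences also occurs in GENCODE transcripts of other genes, and none of Atp5g3 does, so the values of Atp5g1 and Atp5g2 are uncertain.

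Such shared sequence limits other genes too. Of the 44 genes, 14 shared no 26-base coding window with a transcript of another gene, among them Cox6a2, Cox7a1, Cox8b, Uqcrq, Atp5d, Atp5e, Atp5a1 and Uqcrfs1. For 13 genes over 50% of windows were shared, and for Cycs, Atp5l and Cox7c all of them were. The share was 83.3% for Atp5h, 69.4% for Cox6c, most of it in Cox6c2, and 65.0% for Cox7a2l. It was 42.9% for Uqcrh, where part of it lies in Uqcrh-ps1, 37.6% for Cox6a1, 20.3% for Cox7a2 and 2.70% for Cox8a. The sources used here do not say how reads with several matches were counted.

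On the deposited scale the RNA of all 43 genes compared was higher in heart than in TA, for most of them by a similar factor. Heart exceeded TA by 2-fold or more for 31 of the 43 genes compared and fell short of it by as much for 0, where 35.0% and 3.88% of all 9843 genes did so. Many ratios lay close to this limit. With UTR reads included, 25 genes (58.1%) reached it in favour of heart, against 33.3% of all genes. The median log2 ratio was 1.05, against 0.70 for all genes. That general shift moves the count: measured from the median gene, 3 of the 43 (6.98%) were 2-fold higher (Atpif1, Cox6a1 and Cox8a), a share below the 13.5% of all genes, although their median was 0.35. With the 50 most abundant genes of each of the 4 libraries left out of every scale, 4 were (9.30%), against 15.9% of all genes. The higher share of genes past 2-fold on the deposited scale thus turned round on both other scales. Titin alone took 8.87% of coding reads in heart RNA and 14.4% in TA RNA; its part in the shift was not tested. The interquartile range of the genes ran from 0.98 to 1.31, a width of 0.33, where that of all genes was 1.03. In complex III the 9 genes ran from 0.65 (Uqcr10) to 1.31 (Cyc1, cytochrome c1), with a standard deviation of 0.22.

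The extremes of the RNA ratio were few. Atpif1, which blocks the reverse, ATP-consuming reaction of the synthase, had 64.5 RPM of RNA in heart and 7.58 in TA, a log2 ratio of 3.07 (2.81 to 3.38). Its RPF was 260 RPM in heart and 42.2 in TA (2.62, 2.53 to 2.71), so its tissue difference exceeded that of every subunit in both readouts. At the low end Atp5e, the epsilon subunit, had 215 RPM of RNA in heart and 193 in TA (0.15, 0.07 to 0.23), nearly level between the tissues and lower in heart when measured from the median gene (-0.55). Atp5g2 followed with 201 and 147 RPM (0.45), and Atp5sl with 26.5 and 17.8 RPM (0.57). Among subunits of complex IV, Cox8b was lowest, with 347 RPM in heart and 226 in TA (0.62).

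Footprints differed between the tissues less evenly than RNA did. In RPF, 21 of 43 genes reached 2-fold in favour of heart and 0 in favour of TA, where 30.1% and 5.06% of all genes did. From the median gene, 7 (16.3%) were higher, against 11.9% of all genes. The median ratio was 0.96, against 0.60 for all genes, and the interquartile range was 0.74, against 1.05. Over the 37 subunits of the 3 enzymes the standard deviation of the ratio was 0.66 in RPF and 0.40 in RNA. The highest subunit was Uqcrh, the acidic hinge protein next to cytochrome c1, with 3332 RPM in heart RPF and 597 in TA RPF (2.48, 2.46 to 2.50). Its RNA was 461 RPM in heart and 203 in TA (1.18), close to the other genes of complex III. Atp5g3 had 2821 RPM in heart RPF and 624 in TA RPF (2.18), against an RNA ratio of 1.39.

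On the deposited scale, where the median gene had an RPF ratio of 0.60, several genes had about equal coding footprints in both tissues. Atp5j, coupling factor F6 of the stalk, had 454 RPM in heart RPF and 452 in TA RPF (0.00, -0.03 to 0.04), while its RNA was 380 RPM in heart and 185 in TA (1.04). With UTR reads added, the RPF ratio of Atp5j was 0.34. Cox6c had 337 and 322 RPM in RPF (0.07) and 586 and 294 RPM in RNA (0.99). Uqcrfs1, the Rieske iron-sulphur protein of complex III, had 1065 and 910 RPM in RPF (0.23) and 924 and 432 RPM in RNA (1.10). In all 3 the RNA was about 2-fold higher in heart while the coding footprints were nearly level. Cox7b had 271 and 237 RPM in RPF (0.20) and 666 and 327 RPM in RNA (1.03). These 4 genes thus had RNA ratios near the median of the 43 and footprint ratios near the bottom. Cox4i2, with its few reads, had 3.40 and 3.15 RPM in RPF (0.11, -0.32 to 0.54) and 6.21 and 2.36 RPM in RNA (1.36, 0.78 to 2.03).

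**Figure D3:**
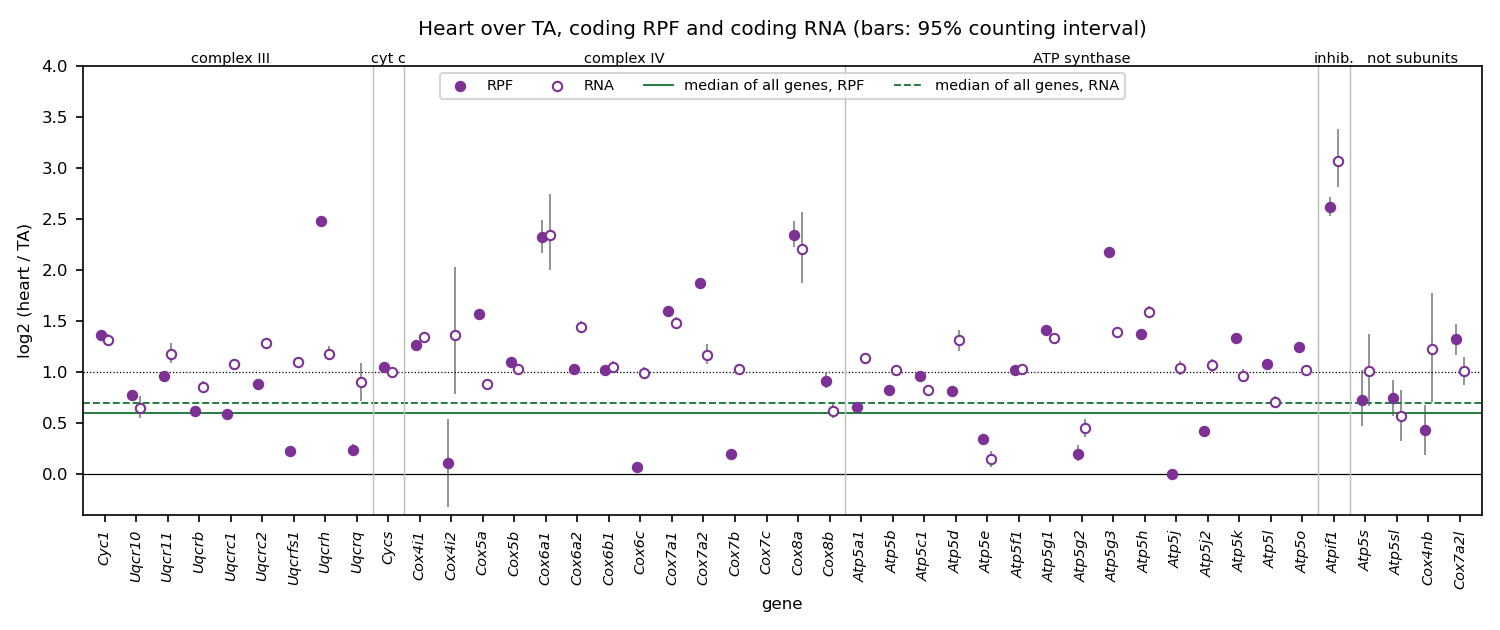
Log2 of heart over TA for coding RPF (filled) and coding RNA (open) of each gene, with 95% counting intervals; green lines give the median of all genes (RPF 0.60, solid; RNA 0.70, dashed) and the dotted line marks 2-fold. Most RNA points sit close to 1, whereas RPF points range from 0.00 (Atp5j) to 2.62 (Atpif1).

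Translational efficiency of the 44 genes leaned to the high side in both tissues, as did that of other short coding sequences. In heart, 16 of 44 were at least 2-fold above the median gene and 0 at least 2-fold below, where 16.0% and 17.8% of all genes were; their median was 0.70. In TA, 16 of 43 were above and 2 below (Cox8b and Cox7a2l), where 15.4% and 18.7% of all genes were, and the median was 0.67. The genes are short, with a median coding length of 358.5 bases against 1416.0 for all genes. Among all genes of 150 to 600 coding bases, 38.2% were above in heart and 34.0% in TA, with medians of 0.72 and 0.59. Of the members in that range, 16 of 33 were above in heart (median 0.96) and 14 of 32 in TA (median 0.88). With the trend on coding length removed, 10 genes were above and 7 below in heart, where 13.1% and 16.3% of all genes were, and 8 above and 3 below in TA, where 13.5% and 17.5% were. The 7 below in heart (15.9%) are thus near the background.

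The order of efficiencies was similar in the tissues, with Pearson's r of 0.87 and Spearman's rho of 0.86 over 43 genes, a description only, since RPF and RNA libraries are shared by all points. Over all genes these were 0.88 and 0.87. In heart the highest were Uqcrh at 3.29 (3.25 to 3.34), Uqcrq at 2.92 (2.79 to 3.06) and Atp5d at 2.53 (2.47 to 2.60). In TA they were Uqcrq at 3.40 (3.27 to 3.55), Atp5d at 2.85 (2.77 to 2.93) and Atpif1 at 2.72 (2.47 to 3.02). Uqcrq had 291 RPM of RPF and 52.1 RPM of RNA in heart, and 247 and 27.8 RPM in TA. Atp5d had 906 RPM of RPF and 212 RPM of RNA in heart, and 516 and 85.8 RPM in TA. Both genes combined the lowest RNA level of their enzyme with a very high number of footprints per RNA read.

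The lowest efficiencies in heart were those of Cox7b at -0.86 (-0.91 to -0.81), Cox8b at -0.66 (-0.73 to -0.60) and Cox7a2l, a factor of respiratory supercomplex assembly, at -0.63 (-0.75 to -0.50). In TA they were Cox8b at -1.14 (-1.22 to -1.07), Cox7a2l at -1.12 (-1.28 to -0.96) and Cycs at -0.62 (-0.67 to -0.57). Cox8b had 161 RPM of RPF and 347 RPM of RNA in heart, and 85.6 and 226 RPM in TA. Cycs, at -0.39 in heart, was also below the median gene in both tissues, as were Atp5g1 (-0.07 in heart, -0.33 in TA) and Atp5g2 (-0.40 and -0.33); with UTR reads added Atp5g1 was above it (0.30 and 0.11).

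Among the 3 enzymes, the median efficiency was highest for complex III, at 1.12 in heart and 1.25 in TA, and all 9 of its genes were above the median gene in both tissues. Its core proteins Uqcrc2 and Uqcrc1 were the lowest in heart, at 0.04 and 0.36. In TA Uqcrc2 was lowest at 0.26, followed by Cyc1 at 0.47 and Uqcrc1 at 0.67. With the length trend removed, Uqcrc2 was below the median gene in heart. Complex IV had medians of 0.74 in heart and 0.66 in TA, and the ATP synthase 0.70 and 0.61. Complex I was described for scale by 34 genes picked by symbol, Ndufa4l2 among them. Ndufa4 was left out of them and placed with the partner genes associated with complex IV. Of the 34, 19 were at least 2-fold above in heart and 17 in TA, with medians of 1.14 and 0.99. Ndufa4l2 was the highest of the list in TA, at 2.90.

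**Figure D4:**
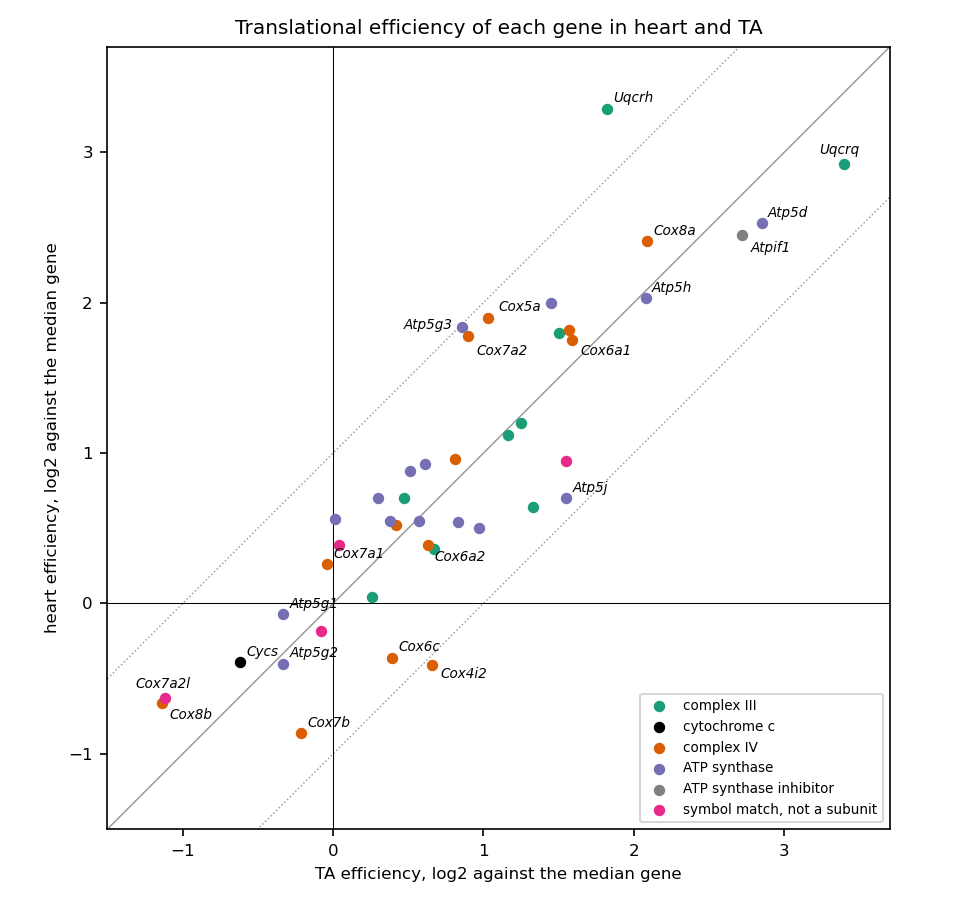
Translational efficiency (log2 of RPF over RNA against the median gene) of each gene in heart (vertical axis) and TA (horizontal axis), 1 library pair per tissue; the solid line marks equal values and the dotted lines a 2-fold difference. Uqcrh lies above the upper dotted line at 3.29 in heart and 1.82 in TA, and Cox4i2 just below the lower one.

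Efficiency differed at least 2-fold between the tissues for 1 gene in each direction among 43, where 4.07% of all genes were higher and 2.34% lower in heart. Uqcrh was higher in heart, with a difference of 1.47 (1.40 to 1.54). Cox4i2 was lower in heart, at -1.07 (-1.79 to -0.35), and its interval reaches well inside 2-fold. Just inside the limit, Atp5g3 had 0.97 (0.92 to 1.02), Cox7a2 0.88 (0.78 to 0.98) and Cox5a, a matrix-side subunit, 0.87 (0.82 to 0.92). On the other side Atp5j had -0.86 (-0.94 to -0.78), Cox6c -0.75 (-0.82 to -0.68) and Uqcrfs1 -0.69 (-0.74 to -0.64). These differences were far larger than the counting error, but no replicate tissue measures how much they vary between animals.

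The genes had few footprints in their 5' UTRs, with a few exceptions. The median share of a gene's RPF that lay in the 5' UTR was 0.744% in heart and 0.149% in TA, against 1.84% and 1.19% for all genes. Their 5' UTRs were also shorter, with a median of 87.0 bases against 155.0 for all genes. The share of RNA in the 5' UTR went the other way. Its median was 2.41% in heart and 2.50% in TA, against 1.08% and 1.03% for all genes. In heart, 6 genes exceeded 10%, as did 21.2% of all genes; in TA 1 gene did, as did 15.9% of all genes. The 6 were Atp5e with 26.6% in heart and 9.37% in TA, Uqcrq with 26.3% and 9.07%, Atp5j with 24.2% and 4.37%, Cox8b with 22.0% and 6.28%, Cox4i2 with 17.3% and 11.8%, and Cox6c with 12.4% and 3.46%. These 6 were picked by their share in heart, so their order between the tissues is not a result. In RPM, the 5' UTR of Atp5j held 145 in heart RPF and 20.7 in TA RPF while its coding footprints were about equal, and that of Atp5g3 held 271 and 8.04. RNA in the same 5' UTR of Atp5j was 39.0 RPM in heart and 22.6 in TA. The sources used here do not say to which region a read across the start codon was assigned. Shares in the 3' UTR were low, with a median of 0.129% in heart RPF and 0.140% in TA RPF, against 0.696% and 0.360% for all genes. The 3' UTRs of these genes were much shorter, with a median of 155.5 bases against 961.0. The median share of RNA in them was lower too, at 16.5% in heart and 17.9% in TA, against 30.2% and 31.4%.

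**Figure D5:**
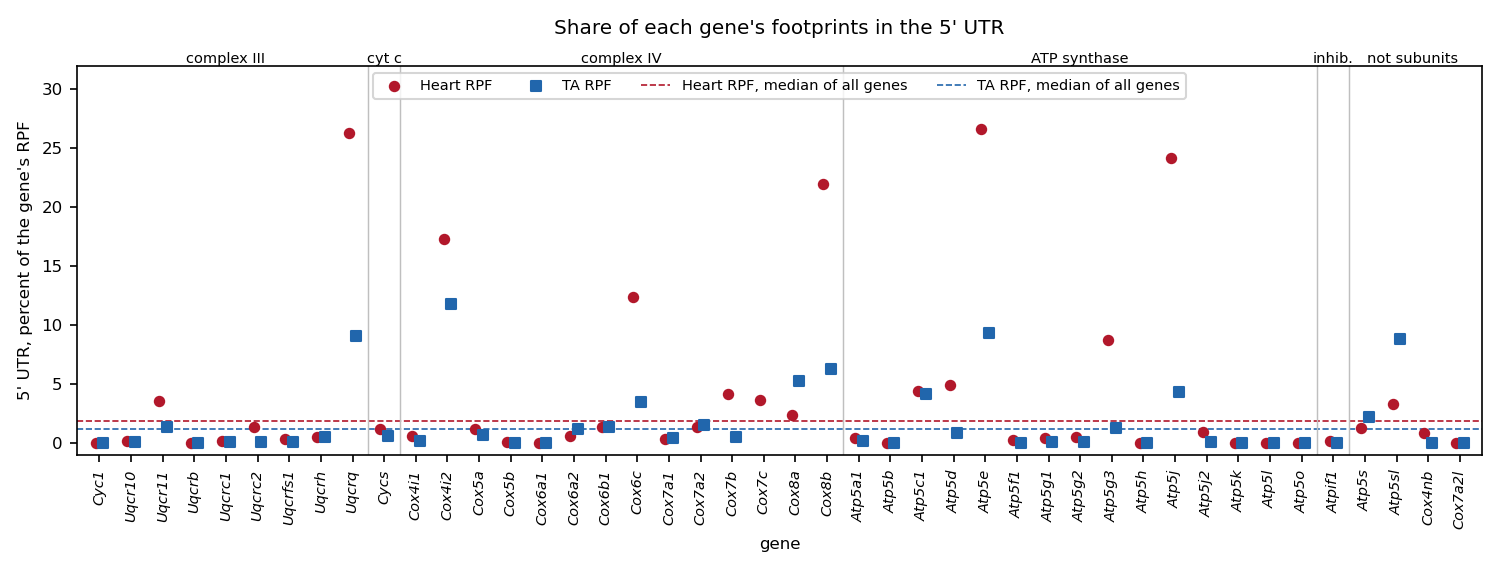
Percent of each gene's RPF that lay in its 5' UTR, in heart (circles) and TA (squares), 1 library each; dashed lines give the median of all genes (1.84% in heart, 1.19% in TA). Atp5e, Uqcrq, Atp5j and Cox8b stand above 20% in heart and below 10% in TA.

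The promoters of these genes were read for 5 motifs on both strands, in the 250 bases before and 50 after the start (RefSeq, GRCm38.p6). A promoter was available for 34 of the 44 genes. The NRF1 element, GCGCA then any base then GCGC, bound by a factor known for respiratory genes, was present in 9 of 34 (26.5%), against 11.7% of 8930 listed genes and 5.19% of all genes with a promoter. The 9 were Atp5c1, Atp5g2, Atp5g3, Atp5h, Atp5k, Atp5o, Atpif1, Cox6a1 and Uqcrc1. As examples of the element, 1 match from each of 4 promoters is shown with 10 bases on either side and the element in capitals.
Atp5c1: ctgagctcccGCGCACGCGCactgagtccc
Atp5k: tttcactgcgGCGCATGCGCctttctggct
Atpif1: tgaccgttctGCGCAAGCGCagcctcacgt
Cox6a1: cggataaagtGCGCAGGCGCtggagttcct
These begin 17, 50, 141 and 117 bases before the start, on chromosomes 2, 5, 4 and 5; Cox6a1 has a second match 162 bases before it. The ETS element CCGGAAGT was in 4 promoters (11.8%, against 9.05% of listed genes), the element TNAAGGTCA of oestrogen-related receptors in 1 (2.94%, against 0.840%), the MEF2 core (CTA and TAG with any 4 bases between) in 1 (2.94%, against 3.95%) and the E-box CAGCTG in 3 (8.82%, against 18.1%). A match is a description of letters and not evidence of binding.

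Genes that assemble or accompany these enzymes were followed by a list of 42 symbols, of which 25 were in both tables. In RNA, 9 of the 25 reached 2-fold in favour of heart and 0 in favour of TA, a share near the 35.0% of all genes; their median was 0.87. The highest were Fam36a, a complex IV assembly factor, with 47.1 RPM in heart and 13.3 in TA (1.82), and Sco1, a copper chaperone, with 19.8 and 5.78 RPM (1.76). The lowest were Cox16, with 12.2 RPM in heart and 16.6 in TA (-0.44), and Cox11, another copper chaperone, with 11.4 and 14.8 RPM (-0.37). In heart Cox17, which carries copper to complex IV, had an efficiency of 3.04 and Usmg5, a small ATP synthase partner, 2.53. In TA Cmc1 had 2.33 and Higd2a 2.29. Lyrm7, which helps insert the Rieske protein, was lowest in both, at -1.17 in heart and -0.56 in TA, followed by Higd1a at -0.67 and -0.51. Lyrm7 rests on 60 to 93 reads per library, and its TA interval ran from -1.13 to -0.05. For Higd1a, 62.4% of RPF lay in the 5' UTR in heart and 6.96% in TA, which the coding efficiency leaves out. Efficiency was at least 2-fold higher in heart for Usmg5 (1.10, 1.00 to 1.19) and Cox16 (1.06, 0.69 to 1.43) and lower for 0 of 25. The share higher was 8.00%, where 4.07% of all genes were higher and 2.34% lower in heart. Cox16 rests on 114 RNA reads in heart, and 33.4% of its heart RPF lay in the 5' UTR.

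For scale, RNA of 11 of the 34 genes with complex I symbols reached 2-fold in favour of heart, with a median of 0.89. That of 18 of 73 mitochondrial ribosomal protein genes did so, with a median of 0.71. At 32.4% and 24.7% these shares are below the 35.0% of all genes. The 4 complex II genes had a median of 1.03. The corresponding RPF medians were 0.91, 0.65 and 0.80, against 0.96 for the 43 genes of complexes III, IV and the ATP synthase.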

How the data were processed

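Heart and TA were each measured with 1 RPF and 1 RNA library. Per the labels, tissue (100 mg) was lysed in cycloheximide, digested with RNase I, and fragments of 26 to 36 bases were cut from a gel; the reference was a set of RefSeq transcripts. The submitters' processing notes name Bowtie and the build mm9; trimming, multiple matches and strand are not stated in the sources used here. Per the file headers, the authors deposited reads per 1000000 mapped reads (RPM) for the coding sequence and both UTRs, with their lengths in bases (other columns). No value is divided by length.

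A symbol on several rows was represented by its highest row; none of the 44 genes was. Ratios were log2 of heart over TA with 0.1 RPM added, where RNA averaged 1 RPM or more over the tissues; efficiency needed RNA of at least 1 RPM in that tissue. A difference counts from 2-fold. No count model could be fitted, since a single library in each group gives no residual degrees of freedom. Low values (up to 8 RPM) fell within 0.0052 RPM of whole multiples of 1 step per library for 100.0% of values, where 9.7% to 29.7% would by chance, and reads were values over that step. Intervals of ratios and of single efficiencies are exact conditional binomial, pair shares Clopper-Pearson, library shares Wilson, and efficiency differences normal on log reads. The scripts were tested on simulated data. Genes described singly were isoform pairs, the 3 most abundant per library, the 3 highest and lowest of each measure, and those past 2-fold in efficiency difference; of assembly genes, the 2 highest and lowest. Atp5j, Cox5a, Uqcrfs1 and Cox7b in the ratios, the core proteins and the 5' UTR values were added after their values were seen. The genes and lists were chosen with earlier results of these data known. A comparison of the proteins was not made; coding bases were compared instead. Coding sequences and promoters are of GRCm38, not of the authors' build. Tools were Python 3.11.15, pandas 2.3.3, scipy 1.17.1, statsmodels 0.14.6 (length trend, span 0.3) and Biopython 1.88. Alternatives were other added constants (0.01, 1) and minima (5 RPM, none), summed rows, UTRs included, centred or rescaled ratios, uncentred efficiency and the length trend removed.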

Additional observations from a re-analysis of the deposited data

Results flagged for a closer look

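In 3 genes the efficiency lay on opposite sides of the median gene in the tissues; with 1 library each, the difference was not tested. Cox4i2 had -0.41 in heart (-0.91 to 0.07) and 0.66 in TA (0.11 to 1.26), a difference of -1.07; with UTR reads added it had 0.25 in heart and 1.38 in TA, on the same side. Cox6c had -0.36 in heart and 0.39 in TA, a difference of -0.75; with the length trend removed both were below (-1.24 and -0.40). Cox7a1 had 0.26 in heart and -0.04 in TA (-0.09 to 0.02), a difference of 0.30, so its TA value was not apart from the median gene by counting error.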

How the results depend on the processing

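No paired analysis was possible because each group holds 1 library. The titles give RPF and RNA of a tissue the same sample number, and efficiency is already the ratio within that pair. The count of genes 2-fold higher in heart depended on the scale. On the deposited scale it was 31 in RNA, where many ratios lay close to the limit. With 1 RPM added it was 29 in RNA, and with UTR reads included 25, against 30.6% and 33.3% of all genes. Measured from the median gene it was 7 in RPF and 3 in RNA, against 11.9% and 13.5% of all genes. Without the 50 most abundant genes of each library it was 8 in RPF and 4 in RNA, against 13.5% and 15.9%. On both of these scales the RNA shares of the members lay below those of all genes. With the length trend removed, 10 genes were above in heart and 7 below, and 8 were above in TA (13.1%, 16.3% and 13.5% of all genes). The number below in heart was 1 with UTR reads added and 3 without centring. Genes past 2-fold in efficiency difference numbered 1 with 1 RPM added and 1 with a minimum of 5 RPM, when Cox4i2 no longer counted. With UTR reads added the number was 3, Atp5g3 then standing at 1.05. No value past 2-fold changed sign under any alternative run, but smaller ones did. Measured from the median gene, 11 of 43 RPF ratios and 5 RNA ratios turned to the TA side, among them those of Atp5e in RNA (-0.55) and Atp5g2 (-0.24). With UTR reads added, the efficiency of Atp5g1 was 0.30 in heart and 0.11 in TA, and that of Cox4i2 was 0.25 in heart. With the length trend removed, 9 of 44 efficiencies changed side of the median gene in heart and 7 of 43 in TA. The muscle form was higher in 12 of 12 pair and library combinations, also without division by length and over whole transcripts. Over 9 settings the efficiency difference of Cox8b and Cox8a ran from -3.08 to -1.58 in heart and from -3.24 to -1.86 in TA. That of Cox6a2 and Cox6a1 ran from -1.40 to -0.96 and from -1.01 to -0.68, and that of Cox7a1 and Cox7a2 from -1.53 to -1.08 and from -0.95 to -0.60. Depth limits Cox4i2 (38 to 96 reads) and the RNA of Cox8a and Cox6a1 in TA (95 and 84 reads).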
